A study of Mus musculus with 7 samples.

Results

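Homeobox genes encode transcription factors that bind DNA through a homeodomain, and 38 of them were followed here across the nuclei of the posterolateral cortical amygdala (plCoA) of the mouse. They were the LIM homeobox genes Lhx1, Lhx2, Lhx5, Lhx6, Lhx8, Lhx9 and Isl1, the Emx, Dlx and Otx genes, the POU genes Pou3f1 to Pou3f4 and Pou6f1, Six3, the Nkx genes Nkx2-1, Nkx2-2 and Nkx6-2, Prox1, the zinc finger homeobox genes of the Zfhx, Zeb and Tshz families, and Hopx, Barhl2, Prrx1, Shox2 and Onecut2. All 38 symbols had a row among the 32285 genes of the count matrices. Members were taken by name, without the Meis, Pbx, Satb and Cux families, by a rule that uses no measured value. The list itself was chosen with earlier results of these data known.

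The plCoA receives direct input from the olfactory bulb, and the study asked whether its anterior domain (aplCoA) and its posterior domain (pplCoA) differ in their cell types. Both groups were male wild-type C57BL6J mice aged 8 weeks, which per the study's methods were housed singly and deprived of sensory input before sacrifice, and tissue of several mice was pooled for each of the 3 aplCoA and 3 pplCoA replicates. Nuclei were sorted by DRAQ7, a DNA dye, and sequenced in 7 droplet libraries, of which 2 came from aplCoA replicate 1 and were summed. A pool is the unit of replication, so differences between single mice cannot be seen.

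Levels are in CPM, a gene's share of all UMIs in the same summed nuclei. Of 52201 barcodes with at least 1000 genes, 46412 were kept, with a median of 6160 UMIs. The libraries held between 50812605 and 129624583 UMIs, and any 2 libraries shared 4 to 29 barcodes, at most 0.385% of the smaller one. Marker genes split the nuclei into 11 classes, among them 20057 glutamatergic neurons, 5087 GABAergic neurons, 9769 astrocytes, 3641 oligodendrocyte precursor cells (OPCs), 309 newly formed oligodendrocytes (NFOLs), 1532 mature oligodendrocytes (MOLs) and 2805 microglia. Vascular leptomeningeal cells (VLMCs) numbered 1856 nuclei and arachnoid barrier cells (ABCs) 1054. Macrophages, with 261 nuclei, and mural cells, with 41, were too few for a comparison between domains. The defining markers were where their class name puts them, with Slc17a7 at 217 CPM in glutamatergic and 9.44 CPM in GABAergic nuclei and Gad2 at 4.22 CPM and 354 CPM. Members were left out of the clustering that set the classes.

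In the embryo, homeobox genes divide the telencephalon. Emx and Lhx2 act in the pallium, the source of glutamatergic neurons, and Dlx genes act in the ganglionic eminences, the source of GABAergic neurons. Lhx6 acts downstream of Nkx2-1 in interneurons of the medial ganglionic eminence, whereas Prox1 is kept by interneurons of the caudal one. In the adult brain many of these factors remain on at low levels and hold the identity of a cell. LIM homeodomain proteins work in complexes with the adaptor Ldb1, and Zeb proteins are repressors that carry zinc fingers at both ends and a degenerate homeodomain between them.

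The homeodomain is the feature that most of the members share. It consists of 60 residues that fold into helices, the last of which lies in the major groove of DNA and reads its bases. To show how alike the members are there, the stretch that codes for that helix is given for 15 members on which the results turn, as 51 bases that code for homeodomain residues 42 to 58. The 18 bases in capitals code for residues 48 to 53, the part of the helix that carries the near-invariant tryptophan, asparagine and arginine. All are coding exon sequence of GENCODE vM21 transcripts on GRCm38, 5′ to 3′ on the coding strand. In 12 of the 15 the stretch is split by an intron, so the coordinates of those run across it, and in 3 it lies in 1 exon.

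The first set is the 5 genes of GABAergic neurons, shown because the Dlx genes are close copies that sit in pairs. Dlx1 (chr2:71531148-71532305, plus strand) and Dlx2 (chr2:71544883-71545392, minus strand) are neighbours, as are Dlx5 (chr6:6878447-6879534, minus strand) and Dlx6 (chr6:6865263-6867082, plus strand). The stretch spans exons 2 and 3 in these 4 genes and exons 7 and 8 in Lhx6 (chr2:36091101-36091334, minus strand).
Dlx1: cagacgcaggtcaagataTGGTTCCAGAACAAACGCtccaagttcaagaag
Dlx2: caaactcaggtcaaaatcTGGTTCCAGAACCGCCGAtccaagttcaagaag
Dlx5: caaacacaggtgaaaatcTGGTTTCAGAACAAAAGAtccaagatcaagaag
Dlx6: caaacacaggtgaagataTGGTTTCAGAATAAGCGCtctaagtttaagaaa
Lhx6: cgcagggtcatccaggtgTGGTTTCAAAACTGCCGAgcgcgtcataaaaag

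The second set is 5 genes that marked astrocytes or the oligodendrocyte lineage, shown because they come from unrelated homeobox families. Lhx2 lies at chr2:38360089-38368877 (plus strand, exons 4 and 5), Emx2 at chr19:59461838-59463921 (plus strand, exons 2 and 3) and Otx1 at chr11:21997023-21998384 (minus strand, exons 4 and 5). Pou3f1 lies at chr4:124658838-124658888 (plus strand, exon 1) and Nkx6-2 at chr7:139581653-139581895 (minus strand, exons 2 and 3).
Lhx2: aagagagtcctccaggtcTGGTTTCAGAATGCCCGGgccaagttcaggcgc
Emx2: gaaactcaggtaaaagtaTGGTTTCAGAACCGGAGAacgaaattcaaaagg
Otx1: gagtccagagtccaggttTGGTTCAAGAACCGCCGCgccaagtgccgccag
Pou3f1: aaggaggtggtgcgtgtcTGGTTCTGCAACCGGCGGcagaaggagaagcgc
Nkx6-2: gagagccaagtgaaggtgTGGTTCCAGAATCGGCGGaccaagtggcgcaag

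The third set is 5 members that differed between the domains in glutamatergic neurons. Barhl2 lies at chr5:106453654-106455484 (minus strand, exons 2 and 3), Pou3f2 at chr4:22486893-22486943 (minus strand, exon 1), Pou3f3 at chr1:42698475-42698525 (plus strand, exon 1), Lhx9 at chr1:138831589-138832716 (minus strand, exons 4 and 5) and Prrx1 at chr1:163257907-163261854 (minus strand, exons 2 and 3).
Barhl2: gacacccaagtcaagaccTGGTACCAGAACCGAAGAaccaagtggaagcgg
Pou3f2: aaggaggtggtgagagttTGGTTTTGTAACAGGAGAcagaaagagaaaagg
Pou3f3: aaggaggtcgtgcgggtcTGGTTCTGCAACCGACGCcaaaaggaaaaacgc
Lhx9: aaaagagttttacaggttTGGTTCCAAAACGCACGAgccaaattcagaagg
Prrx1: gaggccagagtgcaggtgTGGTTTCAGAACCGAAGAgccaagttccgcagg

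Over the whole homeobox of 180 bases, the 105 pairs of these genes were identical at 37.2% to 84.4% of bases, with a median of 46.7%. Most relatives were closer, with 78.3% to 84.4% among the 3 Pou3f genes, 71.1% to 76.7% among the 4 Dlx genes and 79.4% between Lhx2 and Lhx9, but Lhx6 shared only 56.7% with Lhx2 and 53.9% with Lhx9, less than the 60.6% between Otx1 and Prrx1. The 3 astrocyte genes shared 50.6% to 52.8%, and the 5 domain genes 38.3% to 80.6%, of which the upper end is the pair Pou3f2 and Pou3f3. The Dlx genes that marked GABAergic neurons are thus close relatives, while the genes that marked astrocytes are not.

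Across classes, 11 of the 38 members marked a class, 6 were near absent and 21 were shared or low. A member was taken to mark a class where its mean over the 6 replicates was at least 10 CPM there and at least 3 times that of every other class. It was called near absent where no class reached 1 CPM. These levels describe clusters of these same nuclei and carry no test. In summed nuclei, fewer cells of a type and less RNA per cell cannot be told apart.

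GABAergic neurons were marked by Lhx6, Dlx1, Dlx5 and Dlx6. The Dlx genes encode the factors that set the GABAergic fate, and their lowest, median and highest replicate in GABAergic nuclei were 45.4, 54.4 and 70.2 CPM for Dlx1. Dlx6 gave 16.7, 18.8 and 20.3 CPM, and Dlx5 gave 6.24, 10.6 and 13.3 CPM. The replicates of Dlx1 and Dlx6 all stood above 10 CPM, while those of Dlx5 lay on both sides of it. The mean of Dlx1 was 56.9 ± 9.91 CPM (SD, n = 6), 16.6 times the level in astrocytes, its next class, and that of Dlx6 was 18.5 ± 1.30 CPM (SD, n = 6), 32.5 times the level in VLMCs. Lhx6, the factor of medial ganglionic eminence interneurons, ran from 24.7 to 31.2 CPM with a median of 29.4 CPM, 26.2 times the level in VLMCs. A UMI of Dlx1 was seen in 33.9% of GABAergic nuclei (median 7907 UMIs) against 0.713% of the deeper glutamatergic nuclei (median 12212 UMIs). For Lhx6 these shares were 16.7% and 0.374%, and for Dlx6 13.8% and 0.374%. Dlx2, the partner of Dlx1, just missed the rule at 7.84 ± 1.80 CPM (SD, n = 6), 2.84 times the 2.76 CPM in astrocytes.

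Astrocytes were marked by Lhx2, Emx2 and Otx1, genes of the early dorsal telencephalon. The lowest, median and highest replicate of Emx2 in astrocytes were 54.0, 71.1 and 84.9 CPM, those of Lhx2 were 44.5, 50.4 and 66.1 CPM, and those of Otx1 were 27.8, 36.1 and 39.1 CPM. Each of the 3 genes was highest in astrocytes in 6 of 6 replicates. The mean was 4.04 times that of the next class for Lhx2, which glutamatergic neurons held at 13.2 CPM, 7.83 times for Emx2 and 9.57 times for Otx1, in both of which the next class was the 41 mural nuclei. Six3 and Pou3f4 fell just short in astrocytes, with 23.3 ± 9.46 CPM (SD, n = 6) and a ratio of 2.97 for Six3 and 13.6 CPM and a ratio of 2.91 for Pou3f4.

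The oligodendrocyte lineage was marked stage by stage. Pou3f1, a POU factor known from myelinating glia, marked OPCs at 76.0, 119 and 136 CPM in the lowest, median and highest replicate, and Nkx2-2, a factor of oligodendrocyte differentiation, marked NFOLs at 161, 207 and 253 CPM. Nkx6-2, which acts in myelination, marked MOLs at 58.6, 78.6 and 98.8 CPM, and Onecut2 did so at 63.5, 86.0 and 166 CPM. OPCs held Nkx2-2 at 66.3 CPM and MOLs at 24.5 CPM, so its ratio of 3.13 lay just inside the rule. The ratio was 4.90 for Pou3f1, 10.7 for Nkx6-2 and 4.05 for Onecut2. Onecut2 was highest in MOLs in 6 of 6 replicates, but its ratio leaned on pplCoA replicate 3, with 166 CPM in MOLs and 0 CPM in NFOLs. Its NFOL level came from 41 UMIs, at 58.9, 47.4 and 3.50 CPM in aplCoA and 2.88 and 30.2 CPM in pplCoA replicates 1 and 2. Over the replicates other than pplCoA replicate 3, the mean in MOLs was below 3 times that in NFOLs. The place of Onecut2 among the marks thus rests on that replicate. A UMI of Nkx2-2 was seen in 57.0% of NFOL nuclei (median 5201 UMIs) and in 0.259% of glutamatergic nuclei.

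Zinc finger homeobox genes reached the highest levels and were spread over classes. Zeb2 stood at 4489 CPM in macrophages, 2715 CPM in NFOLs and 2630.3 CPM in microglia, and at 109 CPM in ABCs, its lowest. Zfhx3 stood at 3879 CPM in microglia, with replicates between 3531 and 4081 CPM, which was 2.79 times the level in macrophages and so outside the rule, and at 11.5 CPM in GABAergic nuclei. Zeb1 was highest in OPCs (1834 CPM) and lowest in MOLs (11.0 CPM), where Zeb2 was at 2168 CPM. Tshz2 and Zfhx4 were highest in the meningeal ABCs, at 796 and 748 CPM, and next in VLMCs, at 600 and 460 CPM. Zfhx2 was highest in MOLs at 471 CPM, as was Prox1 at 203 CPM, ahead of GABAergic nuclei at 89.1 CPM. Pou6f1, Zfhx2, Zfhx3, Zeb1, Zeb2 and Tshz1 exceeded 10 CPM in all 11 classes.

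Of the remaining shared members, Pou3f2 and Pou3f3 were highest in astrocytes at 93.3 and 83.6 CPM, and OPCs held 38 and 71.5 CPM. Hopx stood at 53.3 CPM in astrocytes and 38.1 CPM in mural nuclei, a class so small that 3 counts make 27.3 CPM, and under 10 CPM in every other class. Its place outside the rule thus rests on very few mural UMIs. Prrx1 stood at 201 CPM in OPCs and 152 CPM in astrocytes. Tshz1 led in NFOLs at 127 CPM, Tshz3 in ABCs at 248 CPM and Pou6f1 in OPCs at 62.4 CPM. Emx1, a factor of pallial neurons, was low but highest in glutamatergic nuclei at 5.63 ± 0.558 CPM (SD, n = 6), as were Lhx9 at 4.99 CPM and Barhl2 at 1.44 CPM, and Nkx2-1 was highest in GABAergic nuclei at 2.86 CPM.

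Lhx1, Lhx5, Lhx8, Isl1, Otx2 and Shox2 were near absent, with 93, 83, 10, 12, 2 and 5 UMIs in all nuclei. Otx2 had no UMI in glutamatergic nuclei, which at 3 counts over the summed class allows up to 0.0112 CPM, and Isl1 none in GABAergic nuclei, which allows up to 0.0674 CPM. These limits cover counting error only and hold for the classes as clustered. In the split by transmitter UMIs below, Isl1 stood at 0.316 ± 0.587 CPM (SD, n = 6) in GABAergic nuclei. It stood at 0.00292 CPM in glutamatergic ones and was not tested. Some Isl1 UMIs of the glutamatergic class thus lay in nuclei with UMIs of Gad1 or Gad2 and none of Slc17a7 and Slc17a6. The low class mean of Lhx1 hid a small set of nuclei in which it was high, as described with the glutamatergic clusters.

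**Figure D1:**
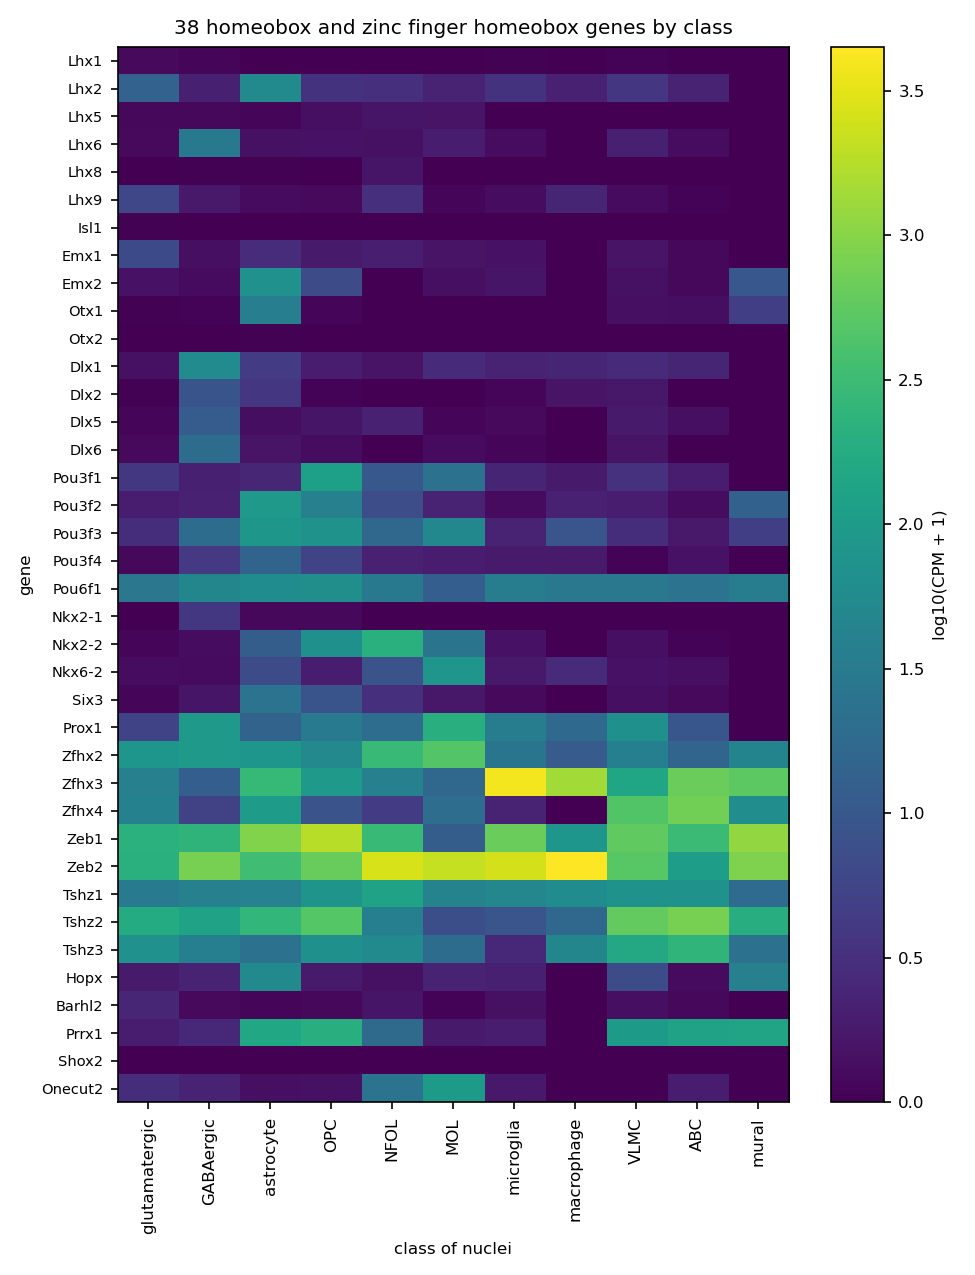
Heatmap of the mean level of each member (rows) in the 11 classes (columns), as log10(CPM + 1) of the mean over 6 replicates, with brighter cells for higher levels. Dlx1, Dlx5, Dlx6 and Lhx6 stand out in GABAergic nuclei, Emx2, Lhx2 and Otx1 in astrocytes, and the Zfhx and Zeb genes fill most columns.

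Glutamatergic and GABAergic neurons could also be told apart by 4 transmitter genes that are no members, which allowed a test. Nuclei with at least 2 UMIs of Slc17a7 and Slc17a6 and none of Gad1 and Gad2 were set against nuclei with the reverse, summed per replicate, and fitted with replicate as a block. Of 28 members tested, 19 differed at least 2-fold with an adjusted p under 0.05 (edgeR quasi-likelihood test, Benjamini-Hochberg), where 21.7% of 18066 genes did so. Higher in glutamatergic nuclei were 8 members, and higher in GABAergic nuclei were 11.

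The 11 members higher in GABAergic nuclei held the Dlx genes, Lhx6, Nkx2-1, Prox1, Pou3f3, Pou3f4, Six3 and Zeb2. Dlx1 stood at 55.7 ± 9.70 CPM (SD, n = 6) against 0.285 ± 0.187 CPM in glutamatergic nuclei, a log2 difference, glutamatergic over GABAergic, of -7.12 (SE 0.187, edgeR adjusted p = 2.28e-10). Lhx6 stood at 28.0 ± 2.26 CPM against 0.161 ± 0.0938 CPM, with a log2 difference of -7.03 (SE 0.161, edgeR adjusted p = 1.13e-10). Dlx2, with 7.56 CPM against 0.0460 CPM, had a log2 difference of -6.90, so that the Dlx gene that missed the class rule was split as sharply by transmitter as its partner. The log2 differences were -6.25 for Dlx5, -6.14 for Dlx6, -6.78 for Nkx2-1, -3.95 for Prox1, -3.86 for Pou3f4, -3.12 for Pou3f3, -2.42 for Six3 and -1.67 for Zeb2. In each of the 11 members except Six3 the GABAergic sum was the higher one in 6 of 6 replicates. For Six3, at 0.745 ± 0.771 CPM (SD, n = 6) in GABAergic nuclei, the glutamatergic sum was the higher one in 2 of 6.

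The 8 members higher in glutamatergic nuclei were Emx1, Lhx2, Zfhx4, Barhl2, Lhx9, Pou3f1, Zfhx3 and Tshz3. Emx1 stood at 5.83 ± 0.628 CPM against 0.408 ± 0.340 CPM (SD, n = 6), a log2 difference of 3.99 (SE 0.295, edgeR adjusted p = 4.86e-07). Lhx2, which keeps pallial identity in the embryo, stood at 13.2 ± 4.23 CPM against 1.10 ± 0.773 CPM, a log2 difference of 3.42 (SE 0.268, edgeR adjusted p = 7.75e-07). Zfhx4 followed with 39.0 against 5.61 CPM and a log2 difference of 2.99, and the others had log2 differences between 1.15 for Tshz3 and 2.65 for Barhl2. Relatives could be on opposite sides, as with Pou3f1 (1.76) and Pou3f3 (-3.12), while Zeb1 (0.003), Zfhx2 (0.04), Tshz1 (-0.19) and Tshz2 (0.10) differed little and were not called. Pou6f1 (-0.66, edgeR adjusted p = 7.77e-07) and Onecut2 (0.85, edgeR adjusted p = 0.00498) were left out by the 2-fold cut alone. Pou3f2 (-0.25), Hopx (-0.36) and Prrx1 (-0.74) passed neither cut.

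Among GABAergic neurons, Lhx6 and Prox1 were highest in different clusters. GABAergic nuclei fell into 12 clusters, numbered by size, of which 11 held at least 50 nuclei. Their levels are a description, since the clusters were made from these nuclei, although without the members. Lhx6 stood at 55.7, 64.5, 74.9, 87.0 and 96.6 CPM in clusters 1, 5, 8, 9 and 11 and at no more than 1.67 CPM in any other. Cluster 11 was led by Sst and Fign, cluster 5 by Man1a and Npsr1 with Sst at 574 CPM, and clusters 8 and 9 by Mctp2. Nkx2-1, which switches Lhx6 on in the embryo, was highest in clusters 9 (25.5 CPM) and 8 (16.5 CPM), lower in 5 (3.91 CPM) and 1 (2.38 CPM) and at 0.870 CPM, or 1 UMI, in cluster 11.

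Prox1 stood at 336 CPM in cluster 3, which was led by Vip, and at 155, 143 and 133 CPM in clusters 6, 2 and 7, led by Ndnf and Npas1, by Ndnf and Reln, and by Frem1. In the Lhx6 clusters it ran from 1.70 CPM in cluster 5 to 34.5 CPM in cluster 9. Clusters 4 and 10 had little Lhx6 and a middling level of Prox1, at 17.2 and 41.0 CPM. Pou3f4 had 57.6% of its GABAergic UMIs in cluster 3, at 16.0 CPM, and Prrx1 75.3% of its own in cluster 4, at 9.26 CPM and below the 20.4 CPM of barcodes with fewer than 100 UMIs. The leading genes of cluster 4 were Ndnf, Flt1, Slco1a4 and Reln, of which Flt1 and Slco1a4 are known from endothelial cells. Tshz genes split otherwise. Tshz2 stood at 713 CPM in cluster 11, 381 CPM in cluster 5 and 6.93 CPM in cluster 2, whereas Tshz1 stood at 119 CPM in cluster 6 and 1.64 CPM in cluster 9.

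The Dlx genes stood at unlike levels over the GABAergic clusters. Dlx1 ran from 22.6 CPM in cluster 1 to 108 CPM in cluster 3, and Dlx6 from 11.9 CPM in cluster 10 to 30.5 CPM in cluster 3, over the 11 clusters with at least 50 nuclei. Dlx5 was at 0.870 CPM in cluster 11, which is 1 UMI and below the 5.67 CPM of barcodes with fewer than 100 UMIs, where Dlx1 was at 105 CPM, and between 8.46 and 17.2 CPM in the other 10. Zeb2, which guides cortical interneurons away from a striatal fate, ran from 54.0 CPM in cluster 11 to 1420 CPM in cluster 3. Cluster 12 held only 48 nuclei and was led by Foxp2 and Meis2. It had Tshz1 at 533 CPM and Six3 at 66.6 CPM, against at most 119 CPM and 0.601 CPM in the others, and Dlx1 at 11.1 CPM.

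**Figure D2:**
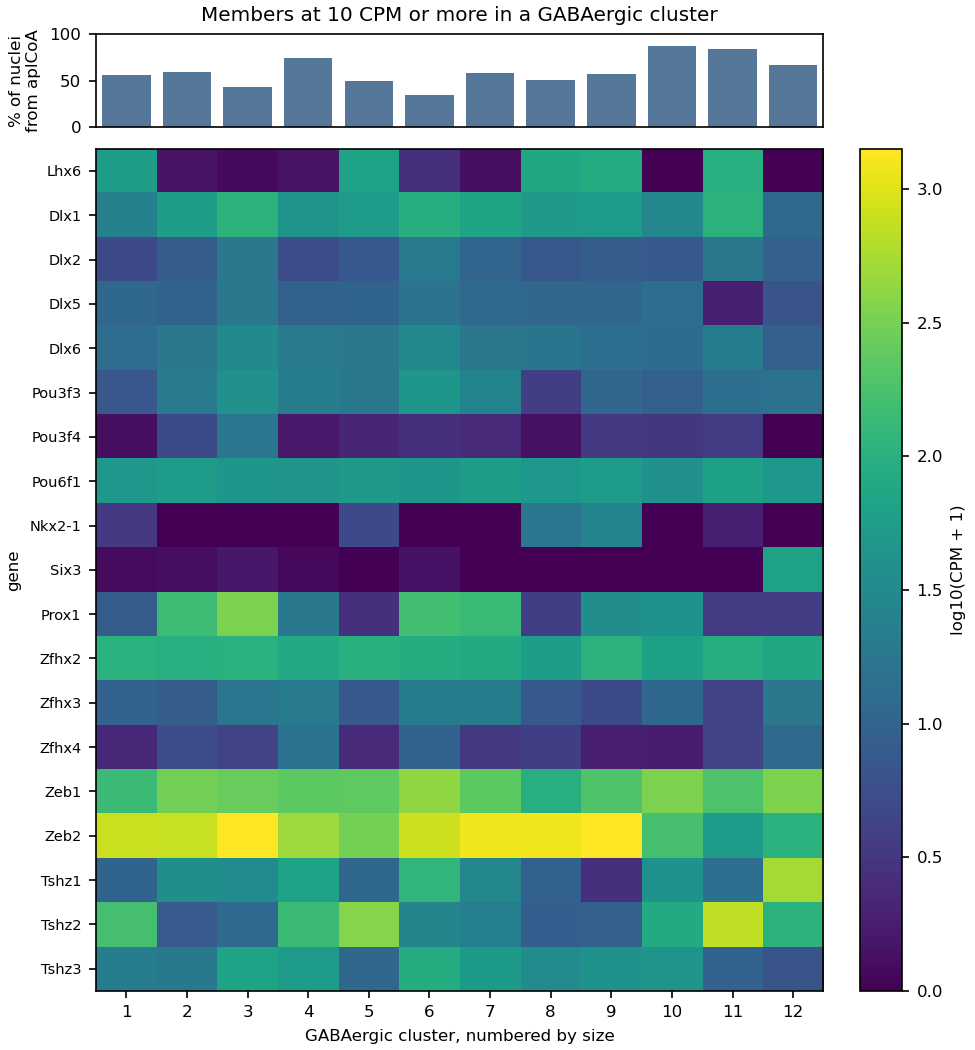
Heatmap of members that reached 10 CPM in a GABAergic cluster (rows) over clusters 1 to 12 (columns), as log10(CPM + 1) of summed nuclei, under bars of the percentage of a cluster's nuclei that came from aplCoA. Lhx6 is high in clusters 1, 5, 8, 9 and 11, Prox1 in 2, 3, 6 and 7, and Tshz1 and Six3 in 12.

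Pairs of members were also followed within single nuclei, each thinned to 2000 UMIs so that depth was equal. Among GABAergic nuclei with a UMI of Lhx6, 2.19 ± 1.04% (SD, n = 6) also had one of Prox1, against 16.7 ± 3.75% of those without Lhx6, and the share was lower with Lhx6 in 6 of 6 replicates. Tshz1 and Tshz2 met more often in glutamatergic nuclei, with Tshz2 in 28.3% of nuclei with Tshz1 and in 19.1% of those without, as did Zfhx3 and Zfhx4 (8.59% and 6.48%), in 6 of 6 replicates each. In GABAergic nuclei Zfhx3 was seen in 3.56% of nuclei with Prox1 and in 1.87% of those without. Pou3f2 was seen in 0% of about 118 glutamatergic nuclei with Pou3f1, which at 3 counts allows up to 2.54%, and in 0.194% of those without, so that no difference was detectable at this depth. Of the 18 pairs examined, none passed the adjustment. The lowest adjusted p was 0.113, from an exact paired permutation test (two-sided) whose smallest possible p over 6 replicates is 0.0312. With 5 pairs at that smallest p none could pass the adjustment over 18 pairs, and the values and the counts of replicates are given as a description.

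Glutamatergic nuclei fell into 14 clusters, of which several came almost wholly from one domain. Clusters 3, 4, 6 and 10 drew 92.6%, 95.6%, 90.2% and 94.3% of their nuclei from aplCoA, and cluster 7 drew 2.02%. The pplCoA replicates were not alike, since cluster 7 made up 3.31% of glutamatergic nuclei in replicate 1 against 21.2% and 22.0% in replicates 2 and 3, and cluster 6 made up 4.79% against 0.0419% and 0%. Cluster 3 was led by Meis1, Ebf1 and Foxp2, cluster 4 by Chrdl1, Ccbe1 and Fign, cluster 6 by Vwa5b1 and Glra1, cluster 10 by Ebf2, and cluster 7 by Moxd1 and Smoc1. Clusters 13 and 14 held 39 and 23 nuclei and are not used below.

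Several members were concentrated in these clusters. Barhl2, a factor of neuronal subtype identity in the retina and spinal cord, had 91.3% of its glutamatergic UMIs in cluster 3, which held 12.4% of the nuclei, and stood at 14.1 CPM there. Zfhx3 stood at 142 CPM in cluster 3 and 97.7 CPM in cluster 6 but at 8.16 CPM in cluster 5, and Lhx9 at 24.8 CPM in cluster 3 and 0.224 CPM in cluster 4. Emx1 was the reverse, with 0.335 CPM in cluster 3 and 8.24 CPM in cluster 5. Tshz2 stood at 1574 CPM in cluster 10, 764 CPM in cluster 6, 486 CPM in cluster 3 and 459 CPM in cluster 8, against 9.09 CPM in cluster 1, the most numerous. Prrx1 had 44.5% of its UMIs in cluster 10, with 2.99% of the nuclei.

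Other members followed other lines. Prox1, which is known from granule cells of the dentate gyrus, had 53.5% of its glutamatergic UMIs in cluster 9 at 50.3 CPM. Zfhx4 ran from 0.863 CPM in cluster 7 to 113 CPM in cluster 12, with 80.4 CPM in cluster 3 next, Tshz3 from 4.61 CPM in cluster 11 to 194 CPM in cluster 8, and Zeb2 from 15.7 CPM in cluster 10 to 471 CPM in cluster 11. Lhx2 was at 29.2 CPM in cluster 7 and 26.1 CPM in cluster 3, which lie on opposite sides of the domains, and at 3.28 CPM in cluster 6. Zfhx2 varied little, between 64.5 and 130 CPM over clusters 1 to 12, with its highest level in cluster 7.

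Cluster 12 was a Cajal-Retzius-like set of 226 nuclei, with Trp73 at 260 CPM, Reln at 2404 CPM and Ndnf among its leading genes. Cajal-Retzius cells are early-born neurons of the marginal zone that secrete reelin. Cluster 12 had a median of 3291.5 UMIs, the lowest of the glutamatergic clusters. Of its nuclei, 112 came from aplCoA replicate 1, and 39.4% had a UMI of Trp73. It held 91.7% of all glutamatergic Lhx1 UMIs, at 87.3 CPM, 39.3% of those of Lhx5, at 27.2 CPM, and 40.8% of those of Emx2, at 70.3 CPM. Lhx1 reached no more than 0.0586 CPM in the other clusters with at least 50 nuclei. Zfhx4 had its highest level there, and Lhx2 stood at 46.5 CPM. The astrocyte means of Emx2 and Lhx2 were 69.2 and 53.4 CPM, and a part of astrocyte RNA in cluster 12 was not tested. Lhx1, near absent by class, thus lay almost wholly in a set that made up 1.13% of glutamatergic nuclei.

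**Figure D3:**
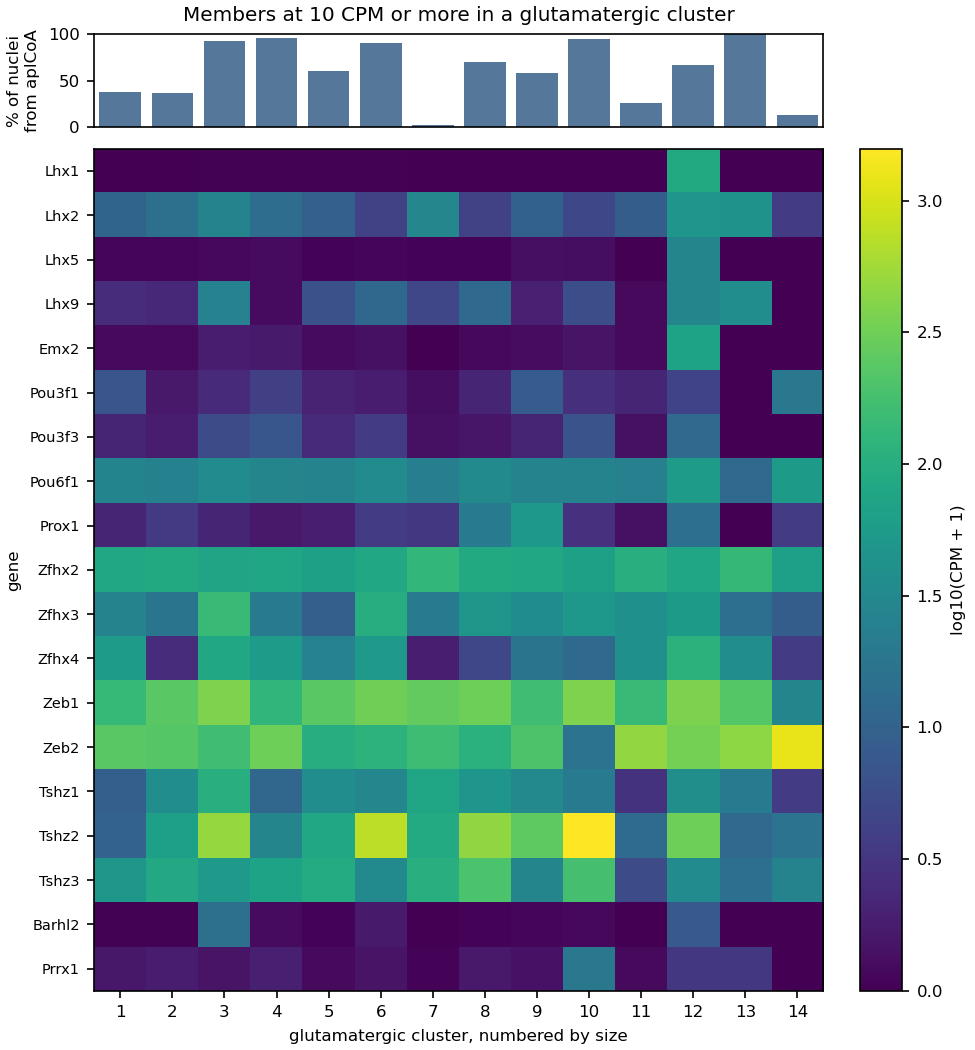
Heatmap of members that reached 10 CPM in a glutamatergic cluster (rows) over clusters 1 to 14 (columns), as log10(CPM + 1) of summed nuclei, under bars of the percentage of a cluster's nuclei that came from aplCoA. Barhl2 is high in cluster 3, Tshz2 in clusters 3, 6, 8 and 10, and Lhx1, Lhx5 and Emx2 in cluster 12.

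Between domains, 8 of the 24 members tested in glutamatergic nuclei differed, of which 7 were higher in aplCoA and 1 was lower. UMIs were summed per replicate and tested over all genes with edgeR's quasi-likelihood test at an adjusted p under 0.05 (Benjamini-Hochberg). By that rule 16.6% of 18834 genes were called, 8.05% towards aplCoA and 8.56% towards pplCoA. The domains did not overlap in CPM for 10 of the 24 members, 9 of them higher in aplCoA, where 38.3% of all genes did not overlap. The median log2 fold change (aplCoA over pplCoA) was 0.29 over the members tested and 0.003 over all genes. That of the members was 0.77 without pplCoA replicate 1 and 0.04 with genes seen in 10% of nuclei. The other 14 members had too few UMIs in glutamatergic nuclei to be tested.

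Barhl2 had the highest fold change. Its level was 2.37, 2.98 and 2.72 CPM in aplCoA replicates 1 to 3 and 0.351, 0.144 and 0.0713 CPM in pplCoA replicates 1 to 3. The domains stood far apart, with a log2 fold change of 3.53 (SE 0.363, edgeR adjusted p = 0.0019). A UMI of Barhl2 was seen in 1.77% of glutamatergic and 0.236% of GABAergic nuclei, and barcodes with fewer than 100 UMIs, which hold free RNA, had 2.66 CPM.

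The POU genes Pou3f2 and Pou3f3, which act in neuronal migration and upper-layer fate, were also higher in aplCoA. Pou3f2 stood at 1.40, 2.08 and 1.33 CPM in aplCoA and 0.369, 0.173 and 0.250 CPM in pplCoA (log2 fold change 2.40, SE 0.331, edgeR adjusted p = 0.0032). Pou3f3 stood at 3.55, 3.71 and 2.15 CPM in aplCoA and 1.18, 0.864 and 0.642 CPM in pplCoA (log2 fold change 1.67, SE 0.281, edgeR adjusted p = 0.0054). In neither gene did the domains overlap. Both are more abundant in astrocytes and OPCs, and the summed level of 4 OPC markers in glutamatergic nuclei was 563 to 611 CPM in aplCoA and 221 to 434 CPM in pplCoA, without overlap, while that of 4 astrocyte markers overlapped (112 to 151 and 134 to 157 CPM). NFOL and GABAergic markers were also higher in aplCoA without overlap, and mural and VLMC markers lower, while the other 7 lists overlapped. Barcodes with fewer than 100 UMIs had 11.4 CPM of Pou3f2 and 23.6 CPM of Pou3f3, above the glutamatergic means of 0.935 and 2.02 CPM. A UMI of Pou3f2 was seen in 1.12% of glutamatergic and 0.143% of microglial nuclei (median 12212 and 3182 UMIs), and one of Pou3f3 in 2.70% and 0.570%. The part of these levels in the result was not tested, and the values are given as UMIs in these nuclei, not as expression by the neurons.

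Tshz2 had the highest level among the called members, at 304, 247 and 274 CPM in aplCoA and 122, 55.1 and 48.1 CPM in pplCoA, where replicate 1 stood above the other two. Its log2 fold change was 1.78 (SE 0.285, edgeR adjusted p = 0.0046). Zfhx3, a regulator of the circadian clock in the suprachiasmatic nucleus, stood at 52.6, 44.3 and 49.6 CPM in aplCoA and 28.3, 28.6 and 24.6 CPM in pplCoA (log2 fold change 0.76, SE 0.0865, edgeR adjusted p = 0.0023). The mean of Zfhx3, 38 CPM, was below the 149 CPM of barcodes with fewer than 100 UMIs, and microglia held it at 3879 CPM, while microglial markers in glutamatergic nuclei overlapped between domains (86.4 to 123 and 105 to 124 CPM). In neither gene did the domains overlap, and both had some of their highest levels in clusters 3 and 6, mostly from aplCoA. Lhx9, a LIM homeobox relative of Lhx2, stood at 7.56, 5.06 and 7.03 CPM in aplCoA and 2.95, 3.23 and 4.10 CPM in pplCoA (log2 fold change 0.87, SE 0.179, edgeR adjusted p = 0.0109). Prrx1 stood at 1.5, 1.06 and 1.22 CPM in aplCoA and 0.462, 0.547 and 0.570 CPM in pplCoA (log2 fold change 1.21, SE 0.239, edgeR adjusted p = 0.0094). Lhx9 and Prrx1 did not overlap between domains either. Prrx1 is most abundant in OPCs, whose markers differed in the same direction, and its glutamatergic mean of 0.892 CPM was below the 20.4 CPM of barcodes with fewer than 100 UMIs and near the 0.936 CPM of microglia. Cluster 10, mostly from aplCoA, stood apart with Prrx1 at 18.3 CPM and a UMI in 11.2% of its nuclei, while the other clusters had at most 2.27 CPM. The part of the OPC markers in this result was not tested. The calls of Lhx9 and Prrx1 were lost without aplCoA replicate 1 (edgeR adjusted p = 0.0577 and 0.0546).

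Zfhx2 was the member lower in aplCoA, at 73.0, 67.6 and 74.1 CPM against 85.0, 96.4 and 100.1 CPM, with a log2 fold change of -0.48 (SE 0.0815, edgeR adjusted p = 0.0055). Zfhx4 lay just past the threshold at an edgeR adjusted p of 0.0537, with 42.3, 46.3 and 42.5 CPM in aplCoA against 33.7, 33.8 and 35.6 CPM in pplCoA. Onecut2 (log2 fold change -0.61, edgeR adjusted p = 0.0892) and Lhx2 (-0.57, edgeR adjusted p = 0.0963) came next, and Emx1, Zeb1, Zeb2, Tshz1 and Tshz3 had log2 fold changes between -0.25 and 0.14. Those of Lhx6, Emx2, Dlx1, Pou3f1, Pou6f1, Nkx6-2, Prox1 and Hopx ran from -0.36 to 0.96 and were not called either.

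Since clusters 3, 4, 6 and 10 came mostly from aplCoA, the same genes were followed in narrower sets of nuclei. Among nuclei with Slc17a7 and no Slc17a6, 4 of 21 members were called, where 6.58% of 17870 genes were. These were Pou3f2 (log2 fold change 2.21, SE 0.396, edgeR adjusted p = 0.0196), Pou3f3 (1.67, SE 0.333, edgeR adjusted p = 0.0231), Tshz2 (1.08, SE 0.203, edgeR adjusted p = 0.0203) and Zfhx2 (-0.42, SE 0.0784, edgeR adjusted p = 0.0203). Lhx9 and Zfhx3 had log2 fold changes of -0.54 and -0.17 there, opposite to those over all glutamatergic nuclei and not called, and Barhl2 had too few UMIs to be tested. This set still differs in makeup between domains, since cluster 4, mostly from aplCoA, and cluster 7, mostly from pplCoA, both had Slc17a7 at 261 CPM, and Pou3f3 stood at 6.21 CPM in cluster 4 and 0.398 CPM in cluster 7. Each of the 4 calls was lost when pplCoA replicate 2 or 3 or aplCoA replicate 1 was left out. Among nuclei with Slc17a6 and no Slc17a7, 0 of 14 members were called by edgeR, where 0.863% of 12394 genes were, and 3 had an unadjusted p under 0.05, as did 12.6% of all genes.

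In the 5 clusters that held at least 20 nuclei of every replicate, a restriction chosen after seeing the data, 2 of 19 members were called, where 5.04% of 17697 genes were. These clusters, 1, 2, 5, 8 and 9, held 56.9% of glutamatergic nuclei. Tshz2 stood at 118, 122 and 112 CPM in aplCoA against 84.9, 50.7 and 38.2 CPM in pplCoA (log2 fold change 0.96, SE 0.217, edgeR adjusted p = 0.0337), and Zfhx2 at 72.5, 65.5 and 70.4 CPM against 82.6, 89.1 and 88.7 CPM (-0.36, SE 0.0720, edgeR adjusted p = 0.0235). The domains stayed apart in both genes. The makeup of this set still differed, since cluster 8, in which Tshz2 was at 459 CPM, was 13.2%, 16.8% and 15.9% of its nuclei in aplCoA and 8.4%, 3.57% and 1.41% in pplCoA. The part of this makeup in the result was not tested. Within single clusters the mean of Tshz2 over replicates was higher in aplCoA in clusters 1, 2, 5 and 9, with 83.0 against 53.9 CPM in cluster 2, and lower in cluster 8, at 396 against 553 CPM. The mean of Zfhx2 was lower in aplCoA in each of the 5. Zfhx4 turned direction, at 25.3, 11.8 and 28.3 CPM in aplCoA against 32.0, 41.1 and 45 CPM in pplCoA (log2 fold change -0.84, SE 0.229, edgeR adjusted p = 0.0637), without overlap and not called. Lhx9, Prrx1 and Zfhx3 had log2 fold changes of -0.20 (SE 0.290), -0.17 (SE 0.358) and -0.22 (SE 0.144), with overlapping domains. Those of Pou3f2 and Pou3f3 were 1.00 (edgeR adjusted p = 0.139) and 0.52 (edgeR adjusted p = 0.458), and none of the 5 was called. Barhl2 had 10 UMIs in these clusters and was not tested. Cluster 3, in which Barhl2 lay, made up 22.1%, 15.2% and 16.3% of glutamatergic nuclei in aplCoA replicates 1 to 3 and 4.46%, 0.587% and 0.536% in those of pplCoA.

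**Figure D4:**
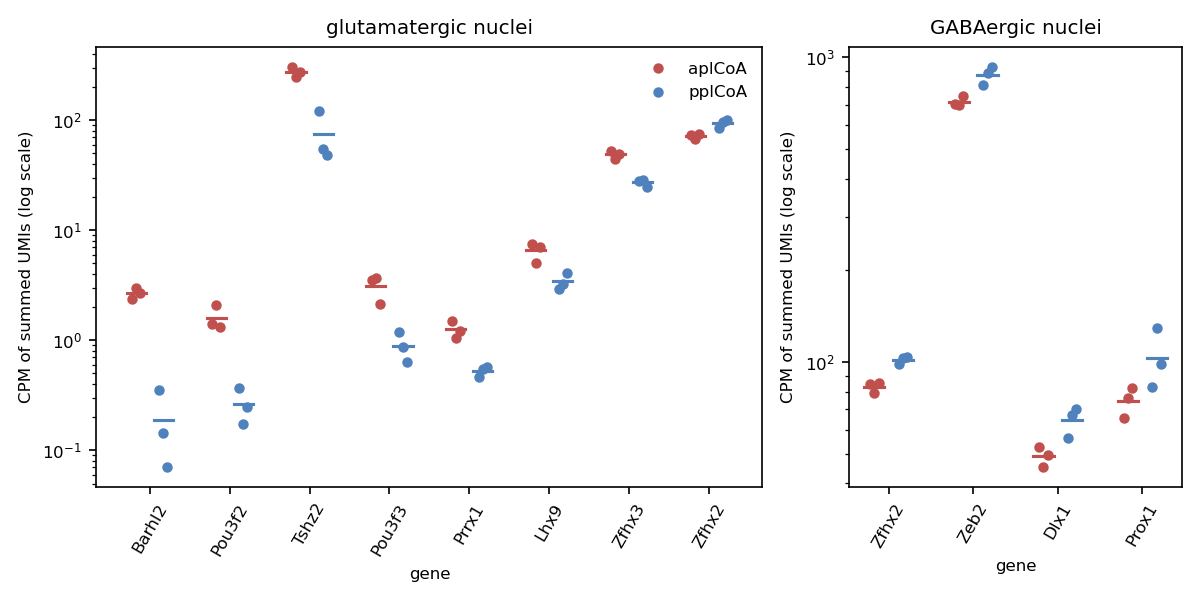
CPM of the 8 glutamatergic and 4 GABAergic members called between domains, on a log axis, with 1 point per replicate and a line at the mean of each domain (n = 3). Barhl2, Pou3f2, Tshz2, Pou3f3, Prrx1, Lhx9 and Zfhx3 lie higher in aplCoA, and Zfhx2 and the 4 GABAergic members lie lower.

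**Figure D5:**
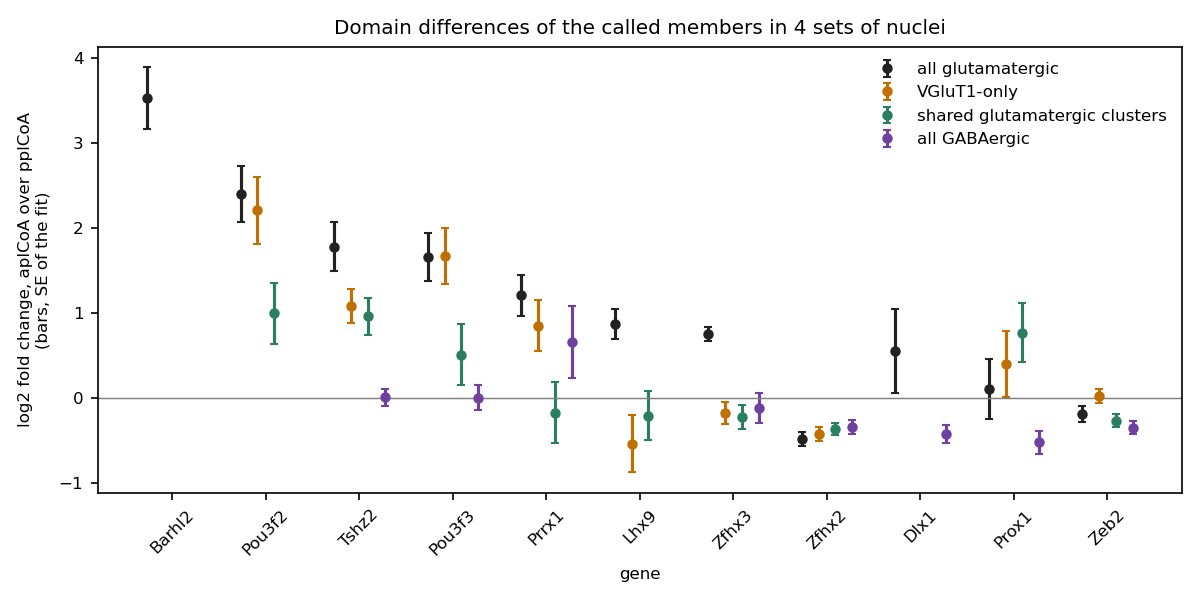
Log2 fold change of aplCoA over pplCoA (edgeR, error bars are SE) of 11 members in all glutamatergic nuclei, nuclei with Slc17a7 only, the 5 shared glutamatergic clusters and all GABAergic nuclei. Genes without a point were not tested in that set. Lhx9, Zfhx3 and Prrx1 fall from above 0 over all glutamatergic nuclei to below 0 in the shared clusters, while Tshz2 and Zfhx2 keep their side.

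In GABAergic nuclei 4 of 20 members tested differed between domains, all lower in aplCoA. By the same edgeR rule 7.1% of 14469 genes were called, 3.11% towards aplCoA and 3.99% towards pplCoA. The same 4 members were those whose domains did not overlap, where 26% of all genes did not. The median log2 fold change was -0.126 over the members and 0.0079 over all genes.

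Dlx1 stood at 52.5, 45.4 and 49.6 CPM in aplCoA and 56.2, 67.3 and 70.2 CPM in pplCoA (log2 fold change -0.42, SE 0.103, edgeR adjusted p = 0.0189). Its relatives Dlx2, Dlx5 and Dlx6, with log2 fold changes of 0.37, 0.38 and -0.20, were not called, nor was Lhx6 with -0.07, and the other 12 members tested ran from -0.23 to 0.67. Prox1 stood at 65.6, 76.4 and 82.0 CPM in aplCoA and 82.7, 129 and 98.8 CPM in pplCoA (log2 fold change -0.52, SE 0.134, edgeR adjusted p = 0.0261), with the highest aplCoA and the lowest pplCoA replicate almost level. Zeb2 stood at 702, 698 and 745 CPM in aplCoA and 813, 887 and 930 CPM in pplCoA (-0.34, SE 0.0746, edgeR adjusted p = 0.0103). Zfhx2 stood at 84.7, 79.5 and 85.1 CPM in aplCoA and 98.5, 103.5 and 103.6 CPM in pplCoA (-0.34, SE 0.0799, edgeR adjusted p = 0.0157).

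Of these 4 genes, Prox1, Dlx1 and Zeb2 had their highest level in the Vip-led cluster 3. That cluster made up 13.9%, 7.85% and 11.1% of GABAergic nuclei in aplCoA and 16.4%, 24.4% and 23.9% in pplCoA. Dlx1 was almost level in clusters 3 and 11, at 108 and 105 CPM, as was Zeb2 in clusters 3 and 9, at 1417 and 1412 CPM. Clusters 11 and 9 drew 83.3% and 57.0% of their nuclei from aplCoA. The part of this makeup in the result was not tested. In the 7 clusters with at least 20 nuclei of every replicate, which include cluster 3, Dlx1, Zfhx2 and Zeb2 were called among 19 members, where 5.88% of 14086 genes were, and Prox1 was not (edgeR adjusted p = 0.0544). All 4 calls were lost when pplCoA replicate 2 or pplCoA replicate 3 was left out, with edgeR adjusted p between 0.0516 and 0.159. Summed OPC markers in GABAergic nuclei were 332 to 344 CPM in aplCoA and 367 to 377 CPM in pplCoA. Astrocyte markers (98.6 to 103.4 against 92.5 to 94.4 CPM) and mural markers (16.0 to 18.8 against 22.3 to 29.7 CPM) did not overlap either, while the other 9 lists did. Their part in the result was not tested.

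The domain difference itself differed between glutamatergic and GABAergic nuclei for 4 of 31 members (edgeR quasi-likelihood test of the interaction), where 3.23% of 18841 genes were called. Tshz2 had a log2 fold change of 1.78 in glutamatergic and 0.01 in GABAergic nuclei, a difference of 1.89 (SE 0.194, edgeR adjusted p = 0.000372). For Pou3f3 the difference was 1.62 (SE 0.289, edgeR adjusted p = 0.0096), for Zfhx3 0.92 (SE 0.140, edgeR adjusted p = 0.0036) and for Zeb1 0.33 (SE 0.0791, edgeR adjusted p = 0.0431). Zeb1 was called in neither class alone (0.14 and -0.15), and its call was lost under DESeq2's size factors (edgeR adjusted p = 0.0863). Without aplCoA replicate 1 or pplCoA replicate 2, the calls of Pou3f3 and Zeb1 were lost and 2 remained. Zfhx2, lower in aplCoA in both, had a difference of -0.10 (edgeR adjusted p = 0.655).

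In the other classes 1 member was called, Zfhx2 in MOLs, of 90 tests of members over 7 classes. The likelihood ratio test of edgeR called 8 and DESeq2 5, where the 3 tests called 1.11%, 1.96% and 0.809% of all genes. Zfhx2 stood at 353, 364 and 415 CPM in aplCoA and 495, 629 and 569 CPM in pplCoA (log2 fold change -0.61, SE 0.138, edgeR adjusted p = 0.0128), without overlap, among 13 members tested, where 1.56% of 7992 genes were called. The call was lost without aplCoA replicate 2 or pplCoA replicates 2 or 3 (edgeR adjusted p = 0.121, 0.223 and 0.101). Zfhx2 had the lower mean in aplCoA in 8 of the 9 classes compared, without overlap in 5 of them, which were both neuronal classes, astrocytes (70.6 against 91.6 CPM), NFOLs (224.5 against 360.8 CPM) and MOLs. Among the 8, OPCs, VLMCs and ABCs overlapped, and VLMCs were almost level at 36.99 against 37.19 CPM. Microglia were the exception, at 26.1 against 23.8 CPM. These classes come from the same 6 pools and are not separate replicates.

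In astrocytes 0 of 24 members were called by edgeR, where 0.444% of 13974 genes were, and 10 had an unadjusted p under 0.05, as did 12.1% of all genes. The count of 0 became 8 of 25 with replicate as a block, 7 of 23 without pplCoA replicate 1 and 9 of 36 without a low-count filter, where 3.77%, 2.83% and 3.05% of all genes were called. The domains did not overlap for 9 of the 24, where 18.5% of all genes did not, with 4 higher in aplCoA and 5 in pplCoA. Emx2 stood at 65.4, 55.8 and 54.0 CPM in aplCoA and 78.4, 76.8 and 84.9 CPM in pplCoA (log2 fold change -0.51, edgeR adjusted p = 0.0715). Six3 lay the other way, at 27.0, 35.4 and 30.6 CPM against 21.7, 12.7 and 12.4 CPM (0.86, edgeR adjusted p = 0.0902). Tshz2, higher in aplCoA in glutamatergic nuclei, stood at 222, 185 and 196 CPM in aplCoA astrocytes and 257, 348 and 366 CPM in those of pplCoA (-0.75, edgeR adjusted p = 0.0514). Hopx, an astrocyte and progenitor gene, stood at 44.7, 26.6 and 45.4 CPM against 62, 61.1 and 80.1 CPM (-0.82, edgeR adjusted p = 0.0731).

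No member was called by edgeR among the 18 tested in OPCs, 8 in NFOLs, 7 in microglia, 11 in VLMCs and 9 in ABCs, where 4.35%, 0%, 0%, 0.0192% and 0% of all genes were. Those with an unadjusted p under 0.05 numbered 4, 2, 0, 0 and 1, where 16.8%, 9.74%, 4.1%, 6.84% and 7.01% of all genes passed that cut.

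Other homeobox genes, cofactors of LIM homeodomain proteins and noncoding genes beside members were followed as lists. Of 155 other homeobox genes in the matrices, 28 were tested in glutamatergic nuclei and 3 called by edgeR, where 16.6% of all genes were, with Mkx higher in aplCoA (log2 fold change 1.19, adjusted p = 0.0105) and Dbx2 (-1.11, adjusted p = 0.0089) and Prox2 (-0.83, adjusted p = 0.0023) lower. In GABAergic nuclei, where 7.1% of all genes were called, 16 were tested and 2 called, Pax6 (1.40, adjusted p = 0.0276) and Prox2 (-0.66, adjusted p = 0.0048). Their medians, -0.197 and -0.110, stood beside 0.003 and 0.0079 over all genes. The most abundant were Pou2f1, Adnp, Pou2f2, Zhx3 and Zhx2 in glutamatergic nuclei, between 43.0 and 74.5 CPM, and Pou2f1, Zhx3, Adnp and Mkx were among the most abundant in GABAergic ones, between 51.9 and 119 CPM.

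Of the 10 cofactors of LIM homeodomain proteins, the adaptors, LIM-only proteins and their binding partners, none was called by edgeR among the 10 tested in glutamatergic and the 9 in GABAergic nuclei, where 16.6% and 7.1% of all genes were. Lmo4 (log2 fold change 0.62, edgeR adjusted p = 0.0612) and Ssbp2 (0.21, edgeR adjusted p = 0.0556) came nearest in glutamatergic nuclei, and the medians were 0.122 in glutamatergic and -0.0104 in GABAergic nuclei, beside 0.003 and 0.0079 over all genes. The adaptor Ldb1 was low, at 9.22 and 12.5 CPM, while Ldb2 stood at 237 CPM in glutamatergic and 93.1 CPM in GABAergic nuclei. Lmo3 and Ssbp2 were higher still in glutamatergic nuclei, at 334 and 350 CPM.

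Noncoding genes on the opposite strand of, or next to, members were also counted, of which 8 were tested in glutamatergic nuclei and 4 called by edgeR, where 16.6% of all genes were. Pantr1, next to Pou3f3, moved as Pou3f3 did, with 10.4, 13.6 and 7.34 CPM in aplCoA and 3.18, 3.05 and 1.53 CPM in pplCoA (log2 fold change 1.89, edgeR adjusted p = 0.0037). Emx2os (1.92, edgeR adjusted p = 0.0143), Dlx6os1 (1.19, edgeR adjusted p = 0.0304) and Dlx1as (-0.85, edgeR adjusted p = 0.0112) were the others. Of 6 tested in GABAergic nuclei, where 7.1% of all genes were called, Prox1os was called (-0.64, edgeR adjusted p = 0.0216), at 16.7, 14.2 and 17.7 CPM in aplCoA and 20.1, 31.3 and 24.1 CPM in pplCoA, the direction of Prox1. The medians were 0.225 and -0.168. In GABAergic nuclei Dlx6os1 stood at 488 CPM and Dlx1as at 201 CPM, above every Dlx gene. The sources used here do not state that counting used strand. Without it, reads of a member and its partner cannot be told apart where the 2 genes overlap. The summed GABAergic markers in glutamatergic nuclei, 20.8 to 38 CPM in aplCoA and 5.77 to 16.0 CPM in pplCoA, did not overlap between domains, and their part in these values was not tested.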

How the data were processed

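Single-nucleus RNA sequencing (10x 3′ v3.1) was made from 7 libraries of 6 pools. The authors aligned reads to mm10 with Cell Ranger (5.0.0 per the submitters' processing notes), introns included, and deposited unfiltered UMI counts per gene and barcode, without normalization. Those counts were used as deposited. A barcode counted as a nucleus at 1000 genes or more, unless its UMIs exceeded the library's median by over 5 median absolute deviations or its mitochondrial or ribosomal percentage exceeded the upper quartile by over 5 interquartile ranges, after which 50535 remained. Doublets were then removed by Scrublet score at 1% per 1000 nuclei, which left 46412. The empty-droplet test and doublet caller of the study were not run. Clustering used scanpy 1.11.5 (Pearson residuals, 5000 variable genes, 50 components, 15 neighbours, Leiden resolution 1), without the members. UMIs were summed per class and replicate and tested with edgeR 4.0.16 (TMM, filterByExpr, quasi-likelihood), and with DESeq2 1.42.0 as an alternative. The study's own test was edgeR's likelihood ratio test. On simulated data, 98% of 200 genes changed by a log2 of 2 were recovered in glutamatergic nuclei and 99.5% in GABAergic nuclei. The interaction recovered 89% and the split by transmitter 97.5%. That simulation does not cover smaller changes, such as most of the called domain differences, and does not show that uncalled members are unchanged. Glutamatergic sums held 24510794 to 84274626 UMIs per replicate and GABAergic sums 3876649 to 14765768.

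All 38 members are accounted for, and members called are given in full. From the other lists, called genes and the 5 most abundant per class are named, of which 1 is not reported here. The members and lists were chosen with earlier results of these data known. The stretches of homeobox were found by a script in translated GENCODE transcripts of 15 members. Replicates are separate pools of mice, whose numbers are not stated to pair aplCoA with pplCoA.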

Additional observations from a re-analysis of the deposited data

Results flagged for a closer look

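In MOLs, Onecut2 stood at 166 CPM in pplCoA replicate 3, far from the other 5 replicates, which lay between 63.5 and 102 CPM. That replicate held 64 MOL nuclei. Among GABAergic nuclei with a UMI of Lhx6, the share with a UMI of Lhx8 exceeded that among nuclei without Lhx6 by 0.0520 percentage points in aplCoA replicate 1 and by no more than 0 in the other replicates, on a gene with 10 UMIs in all. These were 2 of 29 groups of 6 replicates examined for a single distant value, and chance alone gives about 1 in 20.

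The domain difference itself differed between glutamatergic and GABAergic nuclei for 4 of the 31 members tested (edgeR quasi-likelihood test of the interaction), where 3.23% of all genes were called. The log2 fold change of aplCoA over pplCoA was greater in glutamatergic nuclei by 1.89 for Tshz2, 1.62 for Pou3f3, 0.92 for Zfhx3 and 0.33 for Zeb1.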

How the results depend on the processing

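In glutamatergic nuclei 8 of 24 members became 4 of 10 with genes seen in 10% of nuclei, where calls over all genes rose from 16.6% to 21%. In the clusters with at least 20 nuclei of every replicate (chosen after seeing the data) 2 of 19 were called, beside 5.04% of all genes. There Lhx9 (-0.20, SE 0.290), Prrx1 (-0.17, SE 0.358) and Zfhx3 (-0.22, SE 0.144) lay below 0, with overlapping domains and not called. The count ran from 6 to 10 as each replicate was left out. It was 6 without aplCoA replicate 1 (6.82% of all genes) and 10 without pplCoA replicate 1 (22.4%). The 4 GABAergic calls, where 7.1% of all genes were called, became 0 at an adjusted p under 0.01 and 1.5-fold (1.93% of all genes). They became 1 with library 1 of aplCoA replicate 1 alone (1.66%) and ran from 0 to 4 as each replicate was left out. They were 1 without aplCoA replicate 1 (2.91%), 2 without aplCoA replicate 2 (3.82%) and 0 without pplCoA replicate 2 (2.53%) or 3 (5.24%). The 1 call in other classes, where 1.11% of all genes were called, became 0 at the stricter threshold (0.31% of all genes). It became 8 with the likelihood ratio test (1.96%), 5 with DESeq2 (0.809%) and 10 without a low-count filter (1.27%). With library 1 alone it was 0 (0.211%) and with library 2 alone 2 (1.09%). It ran from 0 to 8 as each replicate was left out. It was 0 without aplCoA replicate 2 (0.573%) or pplCoA replicate 2 (0.291%), 3 without aplCoA replicate 1 (0.556%) and 8 without pplCoA replicate 1 (1.36%). The 4 calls in nuclei with 1 transporter, where 4.24% of all genes were called, became 0 at the stricter threshold (0.0198% of all genes). They became 7 with the likelihood ratio test (8.82%) and with DESeq2 (6.13%), 2 with genes in 10% of nuclei (4.89%) and 8 without a filter (4.61%). They ran from 0 to 11 as each replicate was left out. They were 0 without aplCoA replicate 1 (0%) or pplCoA replicates 2 (0.0129%) or 3 (0.0573%), and 1 without aplCoA replicate 2 (0.352%). Without pplCoA replicate 1 they were 11, where calls over all genes rose to 8.47%. The interaction, where 3.23% of all genes were called, gave 2 to 6 calls as each replicate was left out. These were 2 without aplCoA replicate 1 (1.3% of all genes) or pplCoA replicate 2 (1.14%), and 6 without pplCoA replicate 1 (6.9%). The split by transmitter gave 19 to 21, where 21.1% to 22% of all genes were called, and the pairs 0 throughout. A setting with fewer genes or replicates can lower a count by its own construction. The cause of the other changes, the rises without pplCoA replicate 1 among them, was not tested.

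The correlations of same-numbered deviations were 0.0915, 0.0096 and 0.0715 in glutamatergic and 0.0104, -0.110 and 0.0177 in GABAergic nuclei. Those of unlike numbers ran from -0.124 to 0.0808 and from -0.144 to 0.121. These few values, from neurons only, cannot decide whether replicate numbers pair the samples, and other classes were not examined. With the replicate block the calls were 8 in glutamatergic nuclei (15.9% of all genes) and 4 in GABAergic nuclei (5.9%). They were 10 in other classes (2.41%), 8 of them in astrocytes, and 5 in nuclei with 1 transporter (3.24%). Without the block they were 3 for the interaction (1.23%) and 17 for the split (20%). Over all genes, the 3129 glutamatergic calls became 2034 under the 10% filter and 4237 without pplCoA replicate 1, and the 62 astrocyte calls became 734 without a filter and 543 with the block. Depth limits the members of small sets, since Barhl2, Pou3f2 and Prrx1 rest on about 1 to 3 CPM in aplCoA and under 1 CPM in pplCoA.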
